A study of Mus musculus with 15 samples.

Results

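Glutamate tRNA fragments in mouse sperm were described from the 2 tRNA fragment (tRF) entries that carry a glutamate anticodon, GluCTC and GluTTC, of 47 tRF entries measured. The entries were taken by name and followed in 15 small RNA libraries of caudal epididymal sperm from C57BL/6 males (C57BL/6NTac in the study's methods), from 3 males of CO F0 and 4 each of OID F0, CO F1 and OID F1. CO F0 males ate a control diet (CO) and OID F0 males a lard-based, obesity-inducing diet (OID) for 7 weeks before mating to females kept on CO. The CO F1 and OID F1 males are sons of such sires and all ate CO, so that OID in F1 names the diet of the father. The question was whether the sire's diet changes the glutamate tRFs in his own sperm and in that of his sons. The sources used here do not give the age at which each male's sperm was taken, nor which sons belong to which sire.

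Transfer RNAs carry amino acids to the ribosome, and the anticodon reads the codon in the mRNA. GluCTC tRNAs read the glutamate codon GAG, and GluTTC tRNAs carry a first anticodon base that pairs with GAA. Cleavage at or near the anticodon loop leaves fragments, and those from the 5′ side of glutamate and glycine tRNAs are known as the most abundant small RNAs of mature mouse sperm. Much of this load is gained while sperm pass through the epididymis, in vesicles shed by its epithelium. Each entry pools all fragments given to 1 anticodon, so the values do not say which end of the tRNA a fragment came from.

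RefSeq placed 20 nuclear glutamate tRNA loci of 72 bp on the GRCm38.p6 assembly. GluCTC had 12 of these loci on 8 chromosomes, and 9 of them lay outside annotated genes. The other 3 GluCTC loci sat in introns of Fcgr3 (chromosome 1, 171064164 to 171064235), Arrb1 (chromosome 7, 99543900 to 99543971) and Hdgfl2 (chromosome 17, 56092001 to 56092072). GluTTC had 8 loci on 6 chromosomes, of which 4 lay in introns, of Btn1a1 (chromosome 13, 23463535 to 23463606), Elf1 (chromosome 14, 79481668 to 79481739) and the lincRNAs Platr30 (chromosome 3, 96346675 to 96346746) and Gm17575 (chromosome 3, 96387405 to 96387476). No locus of either anticodon overlapped an exon. Glutamate tRNAs resemble each other in sequence. The study's methods give reads shared between tRNAs a weight taken from the alignment score, although the deposited values came out as whole reads. How many reads belong to GluCTC and how many to GluTTC is therefore uncertain.

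The mitochondrial genome holds a further glutamate tRNA, mt-Te, whose anticodon is also TTC. It lies on the minus strand at chrM:14071-14139, is 69 bases long and is a gene of its own. Its sequence is shown because the entry name GluTTC does not say whether its reads were included, and the capitals mark the anticodon.

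mt-Te: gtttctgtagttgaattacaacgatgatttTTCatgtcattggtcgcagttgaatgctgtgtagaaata

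The libraries held 17966 to 5363471 tRF reads. All but 2 held at least 100000; CO F0 replicate 3 had 17966 and CO F1 replicate 2 had 35677. CO F0 replicate 3 also stood apart in composition, with GlyGCC, a glycine tRF, at 57.2% of its tRF reads. OID F1 replicates 1 and 2 had identical miRNA reads in all 164 miRNA entries, 275 reads in each, although none of the 47 tRFs had equal reads in both. Their tRF values were therefore kept as 2 males, and results that rest on them are given without them where the direction turned. The miRNA entries gave only 71 to 1206 reads a library, from a gel slice the study cut at the length of tRFs, which limits a check of the tissue. The 4 sperm and testis miRNAs looked for had 0 to 16 reads, and those of smooth muscle and fibroblasts made up 0.398% to 33.3% of miRNA reads. These are bulk samples, in which more cells of a type and more RNA per cell cannot be told apart.

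The glutamate share of tRF reads ran from 26.0% to 61.6% over the 15 libraries, with a median of 47.8%. GluCTC was the most abundant of the 47 tRFs in 13 libraries and came second, after GlyGCC, in the other 2. GluTTC had rank 3 in 7 libraries, rank 4 in 1, rank 5 in 4 and rank 6 in 3. The widest 95% Wilson interval of a glutamate share was 1.28 percentage points, which reflects the number of reads alone. Copies made by PCR were not marked in these libraries, so the reads are not separate molecules.

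In CO F0 males, glutamate tRFs were 47.8% of tRF reads in replicate 1, 61.6% in replicate 2 and 26.0% in replicate 3. In OID F0 males the shares were 44.2%, 42.1%, 46.5% and 46.7% in replicates 1 to 4. The CO F0 males thus held both the highest and the lowest share of the study, and all OID F0 males lay between them. In CO F1 males the shares were 51.3%, 51.5%, 46.96% and 47.8%, and in OID F1 males 51.5%, 49.3%, 53.0% and 48.6%. The sons of both lineages lay in a narrow band, and the lineages overlapped.

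**Figure D1:**
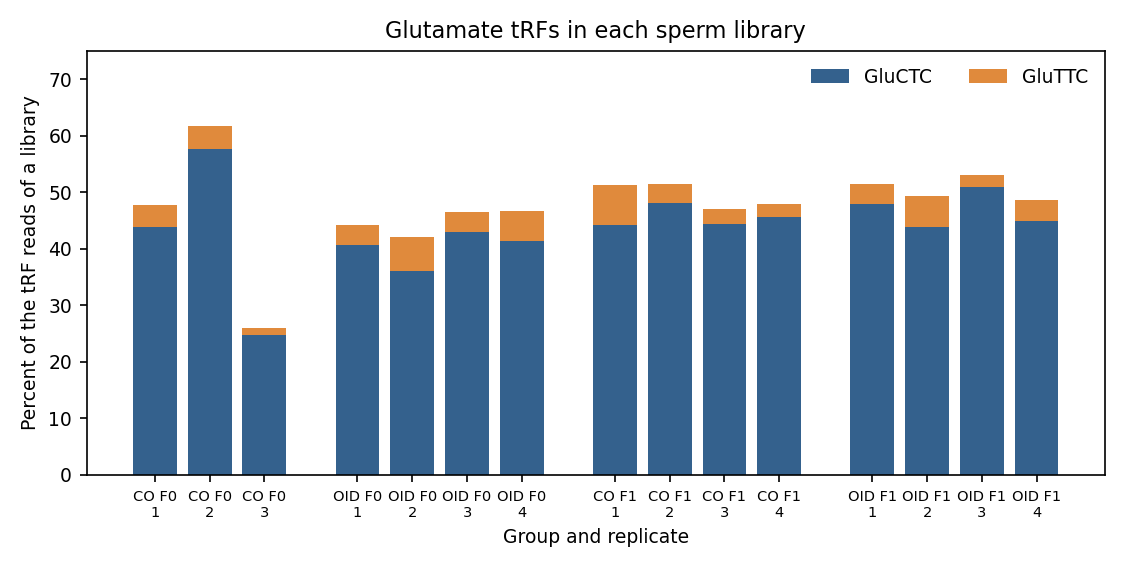
Stacked bars give GluCTC and GluTTC as percent of the tRF reads of each of the 15 sperm libraries, by group and replicate. GluCTC forms most of each bar, and CO F0 replicates 2 and 3 hold the highest and lowest glutamate share (61.6% and 26.0%).

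GluCTC alone was 43.8%, 57.7% and 24.8% of tRF reads in the CO F0 males and 40.7%, 35.98%, 42.9% and 41.4% in the OID F0 males. It was 44.2%, 48.1%, 44.3% and 45.7% in the CO F1 males and 47.8%, 43.9%, 50.9% and 44.8% in the OID F1 males. Within CO F1, the coefficient of variation of the GluCTC share was 3.97%, against 58.2% for GluTTC in the same 4 males. GluCTC was also steadier than GluTTC in OID F0 (7.46% and 28.4%), OID F1 (6.81% and 36.1%) and CO F0 (39.2% and 53.6%).

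GluTTC was 4.01%, 3.98% and 1.16% of tRF reads in the CO F0 males, with the lowest value in replicate 3. It was 3.54%, 6.13%, 3.51% and 5.31% in the OID F0 males, so that replicates 2 and 4 lay above all CO F0 males and replicates 1 and 3 lay inside their range. In CO F1 males GluTTC was 7.08%, 3.39%, 2.67% and 2.17%, with replicate 1 at the highest share of all 15 libraries. In OID F1 males it was 3.67%, 5.38%, 2.09% and 3.78%.

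On the scale of the normalized values the authors deposited, GluTTC was 21622, 27946 and 10070 in the CO F0 males and 20032, 60209, 18433 and 59875 in the OID F0 males. The 4 OID F0 males thus fell into a pair with 59875 or more and a pair with 20032 or less. The pair with high GluTTC, replicates 2 and 4, also had the highest GluCTC values of their group, 353231 and 467046, against 230020 and 225725 in replicates 1 and 3. In CO F1 males GluTTC was 49042, 22688, 16716 and 10934, and in OID F1 males 27234, 35570, 14579 and 24651. GluCTC was 235924, 404780 and 214586 in CO F0, 306354, 322010, 277532 and 229887 in CO F1, and 354605, 289886, 355463 and 292386 in OID F1. No group stood clear of another for either tRF on this scale.

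**Figure D2:**
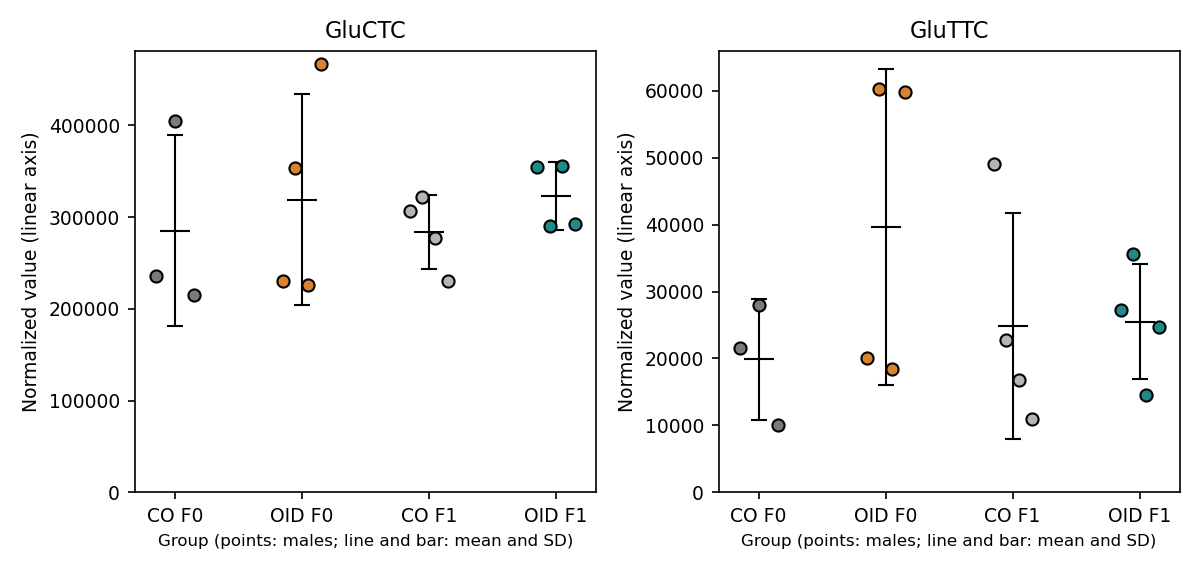
Normalized values of GluCTC (left) and GluTTC (right) on linear axes, with 1 point a male and the mean and SD of each group. The axes differ in scale, the groups overlap for both tRFs, and OID F0 holds a pair of males at 59875 and 60209 for GluTTC.

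Diet of the F0 males themselves gave no call for either glutamate tRF. With limma on log2 of the normalized value + 1, GluTTC was higher in OID F0 than in CO F0 by 0.90 on the log2 scale (SE 0.59, 95% interval -0.47 to 2.26, adjusted p = 0.437 over 47 tRFs, 3 against 4 males). For GluCTC the difference was 0.15 (SE 0.38, interval -0.74 to 1.04, adjusted p = 0.871). The median difference of all 47 tRFs in this comparison was 0.02. The test called 0 of 47 tRFs (0%) at an adjusted p under 0.05, with limma and with limma-voom on the recovered reads, and 10 had an unadjusted p under 0.05 with limma. GluTTC came in at rank 18 of 47 by p. Without CO F0 replicate 3, the shallow library, the GluTTC difference was 0.47 (adjusted p = 0.642).

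Among sons, no call was made for either tRF. GluCTC differed by 0.19 on the log2 scale (SE 0.24, interval -0.35 to 0.73, adjusted p = 0.599) and GluTTC by 0.19 (SE 0.45, interval -0.80 to 1.19, adjusted p = 0.740), from limma with 4 against 4 males. GluTTC turned to -0.16 without the OID F1 males that share miRNA reads. Again 0 of 47 tRFs (0%) were called by limma or by limma-voom, with 8 at an unadjusted p under 0.05 with limma, and the median difference was 0.08. The intervals leave room for a change of GluTTC of about 1 on the log2 scale in either direction.

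With both generations in 1 fit, OID minus CO was 0.17 for GluCTC (SE 0.23, interval -0.30 to 0.65, adjusted p = 0.578, limma) and 0.52 for GluTTC (SE 0.37, interval -0.26 to 1.30, adjusted p = 0.329, limma). The pooled GluTTC difference was 0.30 without CO F0 replicate 3, 0.75 without CO F1 replicate 1 and 0.17 with limma-voom. In this fit 5 of 47 tRFs (10.6%) were called, and neither glutamate tRF was among them. The effect of lineage diet did not differ detectably between generations. The interaction, F1 effect minus F0 effect, was -0.70 for GluTTC (SE 0.75, interval -2.27 to 0.87) and 0.04 for GluCTC (SE 0.47, interval -0.96 to 1.03), both at an adjusted p of 0.988 by limma. With 1 male left out the GluTTC interaction ran from -1.02 to -0.27, the latter without CO F0 replicate 3. For the interaction, 0 of 47 tRFs (0%) were called by limma or by limma-voom, and 2 had an unadjusted p under 0.05 with limma.

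The shares gave a like picture in exact permutation tests, two-sided and adjusted over the 12 tests made of shares and ratio. The glutamate share differed by -0.246 percentage points between OID F0 and CO F0 (SE 10.4, p = 0.971, smallest possible p 0.0571 in this exact test). It was 1.21 points higher in OID F1 than in CO F1 (SE 1.55, exact p = 0.457, adjusted p = 0.914). With 1 male left out this value ran from 0.391 points (without CO F1 replicate 3) to 1.90 points (without CO F1 replicate 2), and with GlyGCC left out of the total it was 4.46 points (exact p = 0.114). GluTTC alone was 1.57 points higher in OID F0 (SE 1.15, exact p = 0.343, adjusted p = 0.914) and differed by -0.0958 points in F1 (SE 1.30, exact p = 0.914). The F0 value was 0.627 points without CO F0 replicate 3 and 0.445 points as a difference of medians. With the generations pooled and diet permuted within each, OID minus CO was 0.480 points for the glutamate share (exact p = 0.834) and 0.738 points for the GluTTC share (exact p = 0.407). The latter was 0.266 points without CO F0 replicate 3 and 1.28 points without CO F1 replicate 1.

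The ratio of GluTTC to GluCTC reads does not depend on library scaling or on any other tRF. GluCTC outnumbered GluTTC in all 15 libraries, by 5.87 to 24.4 times, with a median of 12.2. Per RefSeq locus, GluCTC exceeded GluTTC by 3.91 to 16.3 times. In CO F0 males GluTTC made up 8.40%, 6.46% and 4.48% of the glutamate reads in replicates 1 to 3. In OID F0 males it made up 8.01%, 14.6%, 7.55% and 11.4%. CO F0 replicate 1 lay above OID F0 replicates 1 and 3, so the groups overlapped.

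In CO F1 males GluTTC made up 13.8%, 6.58%, 5.68% and 4.54% of glutamate reads, and in OID F1 males 7.13%, 10.9%, 3.94% and 7.78%. The ratio therefore ran over a 4.16-fold range, and CO F1 alone covered most of it, with replicate 1 far above its group. This spread was larger than counting error, if each read is taken as a separate molecule. The 95% Wilson intervals of any 2 males of the same group did not overlap, in all 21 same-group pairs, and the widest interval was 1.19 percentage points, in CO F0 replicate 3 (3.92% to 5.11%). Between the tRF reads of same-group pairs, the lowest chi-square per degree of freedom was 30.8. This value cannot tell separate males from repeat libraries of 1 sample.

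**Figure D3:**
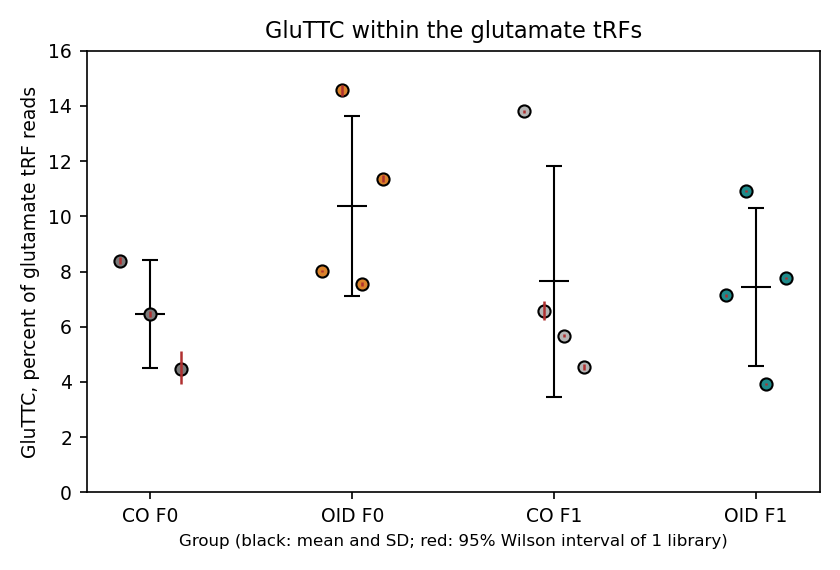
GluTTC as percent of the glutamate tRF reads, with 1 point a male, red lines for the 95% Wilson interval of a library and black lines for the mean and SD of a group. OID F0 runs from 7.55% to 14.6%, and all groups overlap.

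The ratio was 1.67-fold higher in OID F0 than in CO F0 as a geometric mean, a difference of 0.74 on the log2 scale (SE 0.37). The exact permutation test gave p = 0.171 (adjusted p = 0.914). With 3 against 4 males its smallest possible p is 0.0571, so it could not pass 0.05. It was 0.49 without CO F0 replicate 3 and 0.97 without CO F0 replicate 1. In sons the difference of the log2 ratio was 0.00 (SE 0.50, exact p = 1.0). Without the OID F1 males that share miRNA reads it was -0.36. With both generations it was 0.37 (1.30-fold, SE 0.31, exact p = 0.264), and 0.25 without CO F0 replicate 3. By limma on the log2 ratios to GluCTC, the 95% intervals were -0.44 to 1.92 in F0 and -0.99 to 1.00 in F1. The F0 and F1 effects themselves differed by -0.74 (SE 0.67, interval -2.14 to 0.66, adjusted p = 0.987 by limma over 46 ratios), and 0 of the 46 ratios (0%) were called, with 2 at an unadjusted p under 0.05.

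Between generations, neither tRF moved in the pooled fit. F1 minus F0, with lineage in the model, was 0.06 for GluCTC (SE 0.23, interval -0.41 to 0.54, adjusted p = 0.914) and -0.16 for GluTTC (SE 0.37, interval -0.94 to 0.62, adjusted p = 0.812) by limma. In that fit 0 of 47 tRFs (0%) were called by limma or by limma-voom, and 7 had an unadjusted p under 0.05 with limma. The glutamate share was 5.001 percentage points higher in sons than in sires (SE 5.28, exact permutation p = 0.356, adjusted p = 0.914). This value turned on CO F0 replicates 2 and 3. Without CO F0 replicate 2, the library with the highest share, it was 9.13 points with an exact adjusted p of 0.0457, and without CO F0 replicate 3, the library with the lowest, it was 0.209 points with an exact p of 0.935. Males of different generations also differed in the diet eaten in the OID lineage and in whatever else separated sires from sons, which cannot be told apart.

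Within the OID lineage, sires and sons did not overlap in the glutamate share, a split of the generations added after the values were seen. The 4 OID F0 males lay between 42.1% and 46.7% and the 4 OID F1 males between 48.6% and 53.0%. The mean difference was 5.73 percentage points (exact permutation p = 0.0286, the smallest that 4 against 4 can give, adjusted p = 0.171 over 6 tests). With so few males in each group, none of the 6 adjusted p could fall under 0.05, so the adjusted p cannot decide here. GluCTC carried it, at 35.98% to 42.9% in OID F0 and 43.9% to 50.9% in OID F1, while GluTTC differed by -0.891 points (exact p = 0.486). Of all 47 tRFs, 1 (2.13%), GluCTC itself, had all 4 OID F1 males above all 4 OID F0 males. The separation depended on the total. With GlyGCC left out of the total, OID F0 ran from 62.1% to 71.4% and OID F1 from 66.3% to 72.5%, and the groups overlapped (exact p = 0.314). The normalized values of GluCTC overlapped too (exact p = 0.914). In the CO lineage the glutamate share was 4.28 points higher in sons (exact p = 0.686), and the groups overlapped.

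GlyGCC is the other abundant sperm tRF, and it was the first tRF where GluCTC was not. It took 57.2% of the tRF reads in CO F0 replicate 3 and 41.0% in OID F0 replicate 2, against 24.8% and 35.98% for GluCTC. In the remaining libraries GlyGCC held 19.99% to 34.3%. The same pair of libraries had the highest share of the 4 smooth muscle and fibroblast miRNAs among miRNA reads, 22.5% (16 reads) and 33.3% (26 reads). They had only 71 and 78 miRNA reads in all. OID F0 replicate 4, next in GlyGCC at 34.3%, had the lowest smooth muscle and fibroblast share of the 15 libraries, 0.398% (1 read). CO F1 replicate 4 had 14.2% (16 reads) with GlyGCC at 23.2%. By group that share was 5.11% to 22.5% in CO F0, 0.398% to 33.3% in OID F0, 0.934% to 14.2% in CO F1 and 0.415% to 2.54% in OID F1, and at least 1 read of each of the 4 miRNAs was found in every group. In CO F0 replicate 3 and OID F0 replicate 2, blood miRNAs made up 4.23% (3 reads) and 2.56% (2 reads) of miRNA reads. Those of epididymal epithelium made up 1.41% (1 read) and 7.69% (6 reads). The part of these cell types in the glutamate share was not tested.

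As a share of tRF reads, GluCTC varied little between males of a group compared with the other tRFs, and GluTTC was in the middle. For normalized values, the coefficient of variation of GluCTC was 36.1% in OID F0, 14.3% in CO F1, 11.4% in OID F1 and 36.5% in CO F0. For its share it was 7.46%, 3.97%, 6.81% and 39.2%. Among the 28 tRFs that had 10 or more reads in each library, the SD of the log2 share within groups was 0.28 for GluCTC, second from the lowest after GlyCCC (0.21). GluTTC had an SD of 0.69 and was at rank 18. Leaving out CO F0 replicate 3 lowered GluCTC to 0.12, still at rank 2, and GluTTC to 0.56, at rank 14. The most variable tRF was GlyTCC, with an SD of 1.45. This ranking was not adjusted for abundance. GluCTC had a mean share of 43.8% and at least 4454 reads a library, against as few as 13 reads for ArgTCG.

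**Figure D4:**
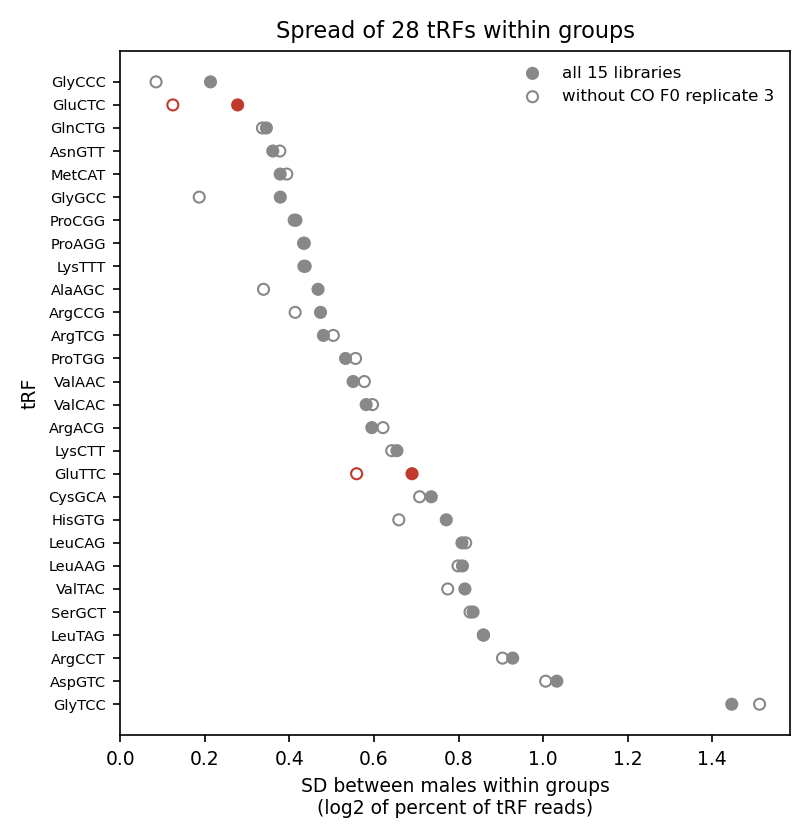
SD between males within groups of the log2 percent of tRF reads, for 28 tRFs with at least 10 reads in each library, filled for all 15 libraries and open without CO F0 replicate 3. The red points are GluCTC, second from the lowest (0.28 and 0.12), and GluTTC (0.69 and 0.56).

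Amino acids with the same choice of a C or a T as the first anticodon base gave 13 such pairs, of which 7 had at least 10 reads of both members in every library. Glutamate had the lowest T-to-C ratio of these 7, with a median of 0.0817. ArgTCT to ArgCCT, which had only 5 reads in its lowest library, lay lower still with a median of 0.0336, so that glutamate was at rank 2 of the 12 pairs with a value. Among the 7, ArgTCG to ArgCCG followed at 0.124, LeuTAG to LeuCAG at 0.172, ValTAC to ValCAC at 0.237, LysTTT to LysCTT at 0.302 and GlyTCC to GlyCCC at 0.319. In proline the T member led, with a median ratio of 1.98. The SD of the log2 glutamate ratio within groups was 0.62, at rank 3 from the lowest of the 7. GlyTCC to GlyCCC covered a 49.0-fold range, against 4.16-fold for glutamate. Within groups, the log2 glutamate ratio had a Pearson r over the 15 libraries of 0.44 with that of LeuTAG to LeuCAG, 0.37 with proline, 0.15 with ValTAC to ValCAC, -0.01 with lysine, -0.26 with glycine and -0.41 with ArgTCG to ArgCCG. The sign of r differed between amino acids.

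**Figure D5:**
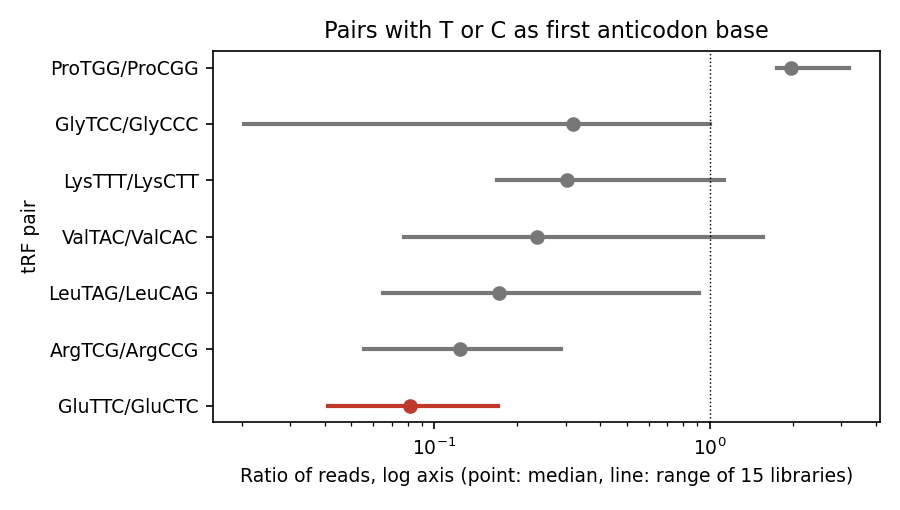
Ratio of reads of the tRF with T to that with C as first anticodon base, on a log axis, for the 7 pairs with at least 10 reads in each library. Points are medians and lines are ranges of 15 libraries, and GluTTC/GluCTC, in red, has the lowest median (0.0817).

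The tRFs whose share moved most like that of GluCTC within groups were AlaAGC (r = 0.55), CysGCA (r = 0.53) and LysTTT (r = 0.49), over 15 libraries and 27 tRFs compared. GluTTC was at rank 4 for GluCTC (r = 0.44), and GlyCCC (r = -0.90) and GlyGCC (r = -0.93) came last. For GluTTC the nearest were HisGTG (r = 0.63), AlaAGC (r = 0.47) and ArgCCT (r = 0.47). These are shares of 1 total within libraries of unequal depth and are given as a description. Without CO F0 replicate 3 the within-group SD of the log2 GluCTC share fell from 0.28 to 0.12. The r values of GluCTC therefore rest largely on the CO F0 males, and they were not recomputed without that replicate.

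Depth went with diet, with a median of 271812 tRF reads in CO F0, 1167991 in OID F0, 680741.5 in CO F1 and 3221587 in OID F1. With depth as a covariate, pooled OID minus CO by limma was 0.38 for GluTTC, against 0.52 without it. For GluCTC it was 0.29 against 0.17, and for the log2 ratio 0.10 against 0.34. Depth itself showed no detectable relation with the glutamate measures over the 15 libraries. For the glutamate share and log2 tRF reads, Pearson's r was 0.37 (permutation p = 0.185, adjusted p = 0.428 over 3 relations) and Spearman's rho 0.09 (permutation p = 0.725, adjusted p = 0.725). Pearson's r was 0.40 within groups and 0.21 without the 2 shallowest libraries. For the GluTTC share r was 0.29 (permutation p = 0.285, adjusted p = 0.428) and rho 0.29 (permutation p = 0.285, adjusted p = 0.623), with 0.31 within groups and 0.04 without those libraries. For the log2 ratio r was 0.22 (permutation p = 0.428, adjusted p = 0.428) and rho 0.22 (permutation p = 0.416, adjusted p = 0.623), with 0.25 within groups and -0.01 without those libraries.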

How the data were processed

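After trimming with Trimmomatic, the authors mapped reads to GRCm38/mm10, assigned tRNAs by blastn and weighted reads shared between tRNAs by alignment score. The submitters' processing notes also name Bowtie2 2.3.4.1 and DESeq2, with no role. Each deposited value is a normalized signal of 1 tRF, called TPM in the study. 1 library summed to more than 1000000, so they were not treated as TPM. All 705 values were whole reads (within 0.001) divided by 1 factor per library, plus 0.5, and how the weights entered them is not known. These reads gave shares, ratios and Wilson intervals. limma-voom on these reads was an alternative, and no other count model was run.

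Groups and replicate numbers came from the labels. It is not stated that replicates are more than separate samples, so p-values measure the spread between these samples. limma 3.58.1 (R 4.3.3) was fitted on log2(value + 1) over all 47 tRFs of the groups compared, with Benjamini-Hochberg adjustment and a threshold of 0.05. Fold changes on this scale understate those of low tRFs. Two-sided exact permutation tests, over every arrangement of the labels, were used for single values. The permutation p of the relations with depth came from 100000 random permutations (scipy 1.17.1). limma for diet in F0 and in F1 was checked on simulated data, with log2 changes larger than any estimated here for the glutamate tRFs. The other limma fits were not checked in this way. The permutation code was checked against scipy on 1 simulated draw. Named tRFs are the members, the 3 most correlated with each over 15 libraries (at least 10 reads), the pairs with C or T as first anticodon base, and GlyGCC. PheGAA in the closing text was chosen after its values were seen. Members and lists were chosen with earlier results of these data known. Locus positions came from RefSeq (GRCm38.p6), and introns and the mt-Te sequence from GENCODE M21. The mature tRNA entries were left out, and miRNAs served only as marker reads.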

Additional observations from a re-analysis of the deposited data

How the results depend on the processing

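The 23 tested values, and further limma fits of the ratio for diet and generation, were recomputed under 481 alternatives in all. Of these, 270 left out 1 male. In 11 of the 23 the direction held throughout. Only the glutamate share between generations passed the threshold in any alternative, at 9.13 points (exact adjusted p = 0.0457) without CO F0 replicate 2. The exact permutation tests of diet in F0 could not pass it, as 3 against 4 males give a p of 0.0571 or more. The direction turned 57 times, with a male left out in 34 and otherwise in 23, always on values that missed the threshold, and the cause was not tested.

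limma-voom called 3 of 47 tRFs for pooled diet, against 5 with limma. With limma-voom, GluCTC was -0.0958 (diet F0) and -0.0149 (diet pooled), and GluTTC was -0.22 (diet F1) and 0.12 (generation). In libraries with at least 100000 tRF reads, GluCTC was -0.0226 for diet F0 and -0.0245 for generation, the glutamate share was -3.96 points (diet pooled) and -0.139 points (generation), and the log2 ratio in F1 was -0.0295. With the replicate number as a block, GluCTC in F0 was -0.0534, the GluTTC share between generations was 0.0600 points and no other direction or call changed. Deviations of same-numbered CO and OID males of 1 generation had correlations of -0.267 to 0.301, which cannot decide whether the numbers pair them. Same-numbered males of different generations were not compared in this way. Rescaling without GlyGCC, GluCTC and GluTTC gave -0.10 for GluCTC in F0, and shifted the median of all tRFs there by -0.25. With depth as a covariate, GluTTC in F1 was -0.18 and its ratio by limma -0.45. With medians, the glutamate share was -0.814 points (diet pooled) and the GluTTC share in F1 0.699 points. On the log2 scale the glutamate share in F0 was 0.0793, and the GluTTC share 0.0420 in F1 and 0.0158 between generations. The linear ratio in F1 was -0.00338. With GlyGCC left out of the total, the GluTTC share in F1 was 0.132 points. Without both OID F1 males that share miRNA reads, an alternative added after seeing the data as was limma on the ratio, GluTTC in F1 was -0.16 and its log2 ratio -0.36.

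With each male left out in turn, GluCTC ranged from -0.0534 to 0.44 in F0, 0.09 to 0.26 in F1, 0.09 to 0.29 pooled, -0.0111 to 0.18 between generations and -0.24 to 0.24 for the interaction. GluTTC ranged from 0.47 to 1.203 in F0, -0.13 to 0.60 in F1, 0.30 to 0.75 pooled, -1.02 to -0.27 for the interaction and -0.37 to 0.00485 between generations. The glutamate share ranged from -9.83 to 8.01 points in F0, 0.391 to 1.90 in F1, -4.31 to 4.61 pooled and 0.209 to 9.13 between generations. The GluTTC share ranged from 0.627 to 2.05 points in F0, -0.648 to 0.989 in F1, 0.266 to 1.28 pooled and -0.600 to 0.219 between generations, and the log2 ratio from 0.49 to 0.97 in F0, -0.23 to 0.37 in F1, 0.25 to 0.55 pooled and -0.37 to -0.05 between generations. The ratio interaction ranged from -0.97 to -0.38. limma-voom was not run for the ratios. With 3 CO F0 males, 1 of them shallow, differences in F0 smaller than the intervals given could not be detected.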

Other observations

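PheGAA, a phenylalanine tRF chosen after its values were seen, was the 1 tRF of 47 with all 4 OID F1 males below all 4 OID F0 males in share of tRF reads, opposite to GluCTC. It is a rare tRF, with 37 reads in OID F0 replicate 2. The gap was narrow, at 40 of 532651 reads in OID F0 replicate 4 and 362 of 4924160 in OID F1 replicate 4. The separation was not tested.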
